A study of Mus musculus with 8 samples.

Results

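Iron handling genes were followed across the 4 groups of bone-marrow-derived macrophages (BMDMs, Mϕ) by total RNA sequencing. The set comprised 10 genes (Tfrc, Slc11a2, Slc11a1, Fth1, Ftl1, Ncoa4, Slc40a1, Cp, Lcn2 and Ireb2), which were matched by Ensembl identifier to their symbols in the mouse GENCODE annotation and make up 10 of the 55359 genes listed. The rule took genes by name and used no measured value, but the list was chosen with earlier results of these data known. BMDMs came from C57BL/6 wildtype mice of both sexes and were differentiated in 20 ng/mL M-CSF and 20 ng/mL GM-CSF, which all groups share. Ctrl was naïve Mϕ cultured without apoptotic cells or stimulus, LPS was naïve Mϕ stimulated over 6 h with LPS at 100 ng/mL together with IFNγ at 100 U/mL, Eff was Mϕ that had been co-cultured for 16 h with apoptotic cells, and LPSEff was such efferocytic Mϕ, washed and then stimulated in the same way. Each group had 2 samples, numbered n1 and n2. The apoptotic cells were NIH-3T3 CA fibroblasts, a single clone whose caspase-8 is switched on by 10 nM of a dimerizer, added at 5 cells per Mϕ. The dimerizer stayed present at 10 nM during the co-culture of Eff and LPSEff. It is not stated whether Ctrl and LPS Mϕ were exposed to dimerizer. Since these fibroblasts are murine, their transcripts cannot be told apart from those of the Mϕ by species, although the cells were selected for CD45 before RNA isolation.

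Iron enters most cells bound to transferrin through the transferrin receptor, leaves the endosome through the transporter DMT1, is kept safe in ferritin and leaves the cell through ferroportin. Macrophages carry the bulk of the body's iron traffic, because they break down the haem of ingested red blood cells, and inflammation is known to make them hold iron back from microbes. Much of this control acts after transcription. The iron regulatory proteins bind hairpins in mRNAs called iron-responsive elements (IREs), which block translation when they lie in the 5′ UTR and protect the mRNA from decay when they lie in the 3′ UTR, and they do so when iron is scarce.

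The IRE-like hairpins of the members were located in the GENCODE transcripts, because they show which of the measured mRNAs carry the letters of this control. The search used CNNNNNCAGTGN on the transcript strand, i.e. an unpaired C, 5 stem bases and the loop CAGTGN, after which 5 bases had to pair with the 5 stem bases, G-T pairs included. Each sequence is given from 5′ to 3′ over 29 bases of the GRCm39 genome, read from the strand of the gene, with the unpaired C and the loop in capitals. Fth1, Ftl1 and Slc40a1 have 1 such hairpin in the 5′ UTR, with all 5 pairs, at chr19:9960096-9960124 (plus strand, 17 of 18 coding transcripts), chr7:45109203-45109231 (minus strand, 6 of 7) and chr1:45964625-45964653 (minus strand, 5 of 9).
Fth1 5′ UTR: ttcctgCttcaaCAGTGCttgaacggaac
Ftl1 5′ UTR: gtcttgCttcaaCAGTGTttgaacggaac
Slc40a1 5′ UTR: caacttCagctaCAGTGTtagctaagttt

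The hairpins of both ferritin chains are identical at 26 of 29 bases, whereas each of them matches that of Slc40a1 at 13 of 29. The unpaired C and the CAGTG of the loop are among these matches because the search required them. Tfrc has 4 hairpins with all 5 pairs in the 3′ UTR, at chr16:32450037-32450065, chr16:32450416-32450444, chr16:32450481-32450509 and chr16:32450528-32450556 (plus strand, 10 of 12 coding transcripts each). Slc11a2 has a hairpin with 4 of 5 pairs in the 3′ UTR, at chr15:100293034-100293062 (minus strand), which is present in 9 of 21 coding transcripts.
Tfrc 3′ UTR, the first: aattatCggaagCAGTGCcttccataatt
Tfrc 3′ UTR, the second: cattatCgggagCAGTGTcttccataatg
Tfrc 3′ UTR, the third: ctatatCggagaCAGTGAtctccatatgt
Tfrc 3′ UTR, the fourth: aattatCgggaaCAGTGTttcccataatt
Slc11a2 3′ UTR: agccatCagagcCAGTGTgtttctatggt

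Among 21594 protein-coding genes, a match with all 5 pairs was found in the 5′ UTR of 46 (0.213%) and in the 3′ UTR of 162 (0.75%), and with at least 4 pairs in the 3′ UTR of 1266 (5.86%). The UTRs of Slc11a1, Cp, Lcn2, Ireb2 and Ncoa4 held no match with at least 4 pairs. A match describes the letters only, and the level of an mRNA does not measure its translation.

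All values below are normalized counts, i.e. the reads of a gene divided by 1 size factor per sample. Depth ranged from 3481288 to 12020918 reads per sample (both extremes in Ctrl), so that 3 reads were worth 1.73 to 5.71 normalized counts. Differences are log2 fold changes on the log2(normalized count + 1) scale with their standard error (SE), tested with limma over the 16309 genes that averaged at least 10 normalized counts in all samples, and a gene was called at an adjusted p under 0.05 (Benjamini-Hochberg). All 10 members passed this filter. Summed macrophage markers ranged from 87544 to 141156 normalized counts across all samples, most of it Lyz2 (54327 to 103975). Summed erythroid markers ranged from 4.23 to 38.6, and Hbb-bt held 27.4 of the highest sum (LPS n2).

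Per kilobase of exon, the members spanned a wide range in Ctrl. Fth1, the heavy chain of ferritin, which oxidises iron for storage, had a mean of 6711 normalized counts per kb, followed by the ferritin light chain Ftl1 with 1351. Slc11a1 (129), Tfrc (91.7) and Ireb2 (74.3) had intermediate levels per kb. The lowest were Slc11a2 (23.7), Lcn2 (14.4), Slc40a1 (10.7), Ncoa4 (10.5) and Cp (3.20).

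**Figure D1:**
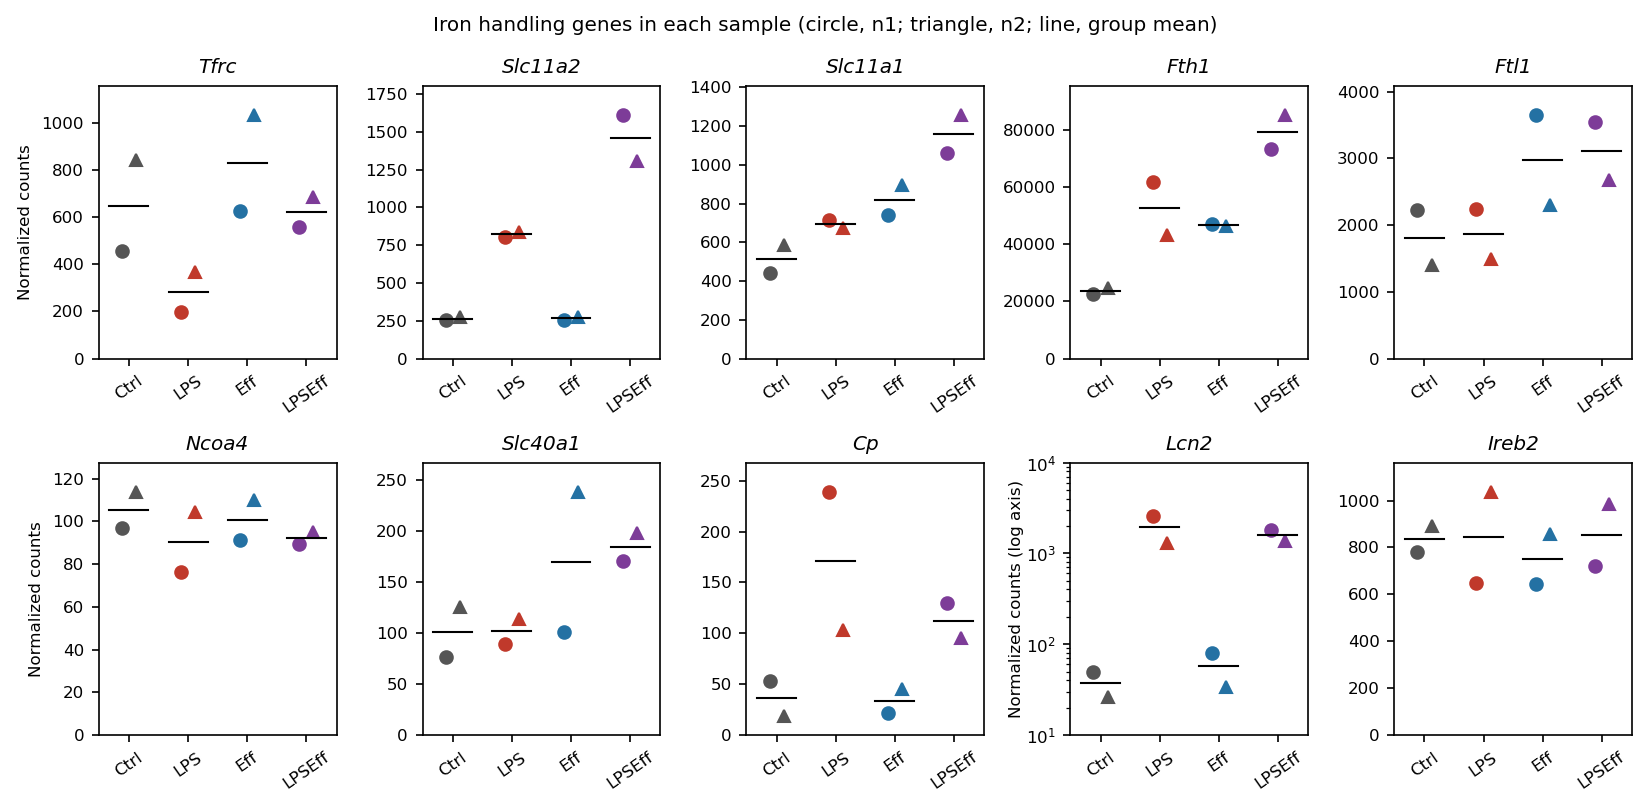
Normalized counts (y axis, from 0, except for Lcn2 on a log axis) of the 10 iron handling genes in the 4 groups (x axis), with a circle for sample n1, a triangle for n2 and a line for the group mean. Slc11a2 lies between 253 and 273 in Ctrl and Eff and at 1610 and 1307 in LPSEff, and Lcn2 is high in LPS and LPSEff. For Ireb2 all groups overlap, and for Ncoa4 the neighbours in the order of the means do.

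To see how LPS/IFNγ and efferocytosis altered iron uptake, the transporters were examined first. Tfrc, the transferrin receptor, had 455 and 842 normalized counts in Ctrl, 197 and 366 in LPS, 625 and 1032 in Eff as well as 556 and 685 in LPSEff (n1 and n2). Both LPS samples lay below all other samples, and the other 3 groups overlapped. LPS was lower than Ctrl by a log2 fold change of -1.20 (SE 0.40), but the gene was not called (adjusted p = 0.0623, limma). This call depended on the method, since Tfrc was called with samples rescaled to equal totals (-1.60), with quantile normalization (-1.28), with edgeR (-1.19) and with DESeq2 (-1.17), as well as without LPS n2 (-1.65). Over all alternatives its adjusted p ranged from 5.3e-07 to 0.311. In efferocytic Mϕ the LPS/IFNγ difference was -0.38 (adjusted p = 0.575, limma). LPSEff exceeded LPS by 1.20 (SE 0.40), with an unadjusted p of 0.0164 and an adjusted p of 0.318 in limma's fit over all genes.

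Slc11a2, which encodes DMT1, the proton-coupled carrier of ferrous iron, rose with LPS/IFNγ in both contexts. It had 253 and 272 normalized counts in Ctrl, 257 and 273 in Eff, 803 and 839 in LPS as well as 1610 and 1307 in LPSEff. Ctrl and Eff overlapped, both LPS samples were higher, and both LPSEff samples were higher still. The rise was 3.12-fold in naïve Mϕ (log2 fold change 1.64, SE 0.18, adjusted p = 0.000563, limma) and 5.46-fold in efferocytic Mϕ (2.45, SE 0.18, adjusted p = 7.8e-05, limma). It was called under each of 20 alternative settings in both comparisons. Between LPSEff and LPS the difference was 0.82 (SE 0.18), which limma did not call (unadjusted p = 0.0017, adjusted p = 0.115) and DESeq2 did (adjusted p = 0.0289), with a range of 0.000606 to 0.581 over all alternatives. Efferocytic and naïve Mϕ differed in this LPS/IFNγ effect by 0.81 (95% confidence interval 0.23 to 1.39, unadjusted p = 0.0125, adjusted p = 0.9999, limma), so that a larger response in efferocytic Mϕ was not called. Gm5475, a long non-coding RNA on the opposite strand of Slc11a2, had at most 75.2 normalized counts.

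Slc11a1, known as NRAMP1, pumps divalent metals out of the phagosome, and C57BL/6 mice are known to carry an allele that does not protect against intracellular pathogens. Slc11a1 had 444 and 588 normalized counts in Ctrl, 714 and 674 in LPS, 740 and 898 in Eff as well as 1061 and 1256 in LPSEff. The groups followed one another from Ctrl over LPS and Eff to LPSEff, and no neighbours in this order overlapped. None of these differences was called in the fit without a replicate term. With LPS/IFNγ they were 0.44 in naïve (SE 0.21, adjusted p = 0.17, limma) and 0.50 in efferocytic Mϕ (adjusted p = 0.135). With efferocytosis they were 0.67 in unstimulated (SE 0.21, unadjusted p = 0.0113, adjusted p = 0.465, limma) and 0.73 in stimulated Mϕ (unadjusted p = 0.00735, adjusted p = 0.222).

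Iron storage was represented by the ferritin chains and by Ncoa4, the cargo receptor that delivers ferritin to the lysosome. Fth1 had 22587 and 24656 normalized counts in Ctrl, 61635 and 43311 in LPS, 47036 and 46137 in Eff as well as 73334 and 85009 in LPSEff. Both Ctrl samples were the lowest and both LPSEff samples the highest, while LPS and Eff overlapped. LPS exceeded Ctrl 2.19-fold (log2 fold change 1.13, SE 0.27, adjusted p = 0.0196, limma). This call was lost with only the compared groups in the fit (adjusted p = 0.0749), with samples rescaled to equal totals (0.73, adjusted p = 0.0827) and with quantile normalization (0.70, adjusted p = 0.158), and also without Ctrl n1 (1.07, adjusted p = 0.0988), without Ctrl n2 (1.19, adjusted p = 0.078) and without LPS n1 (0.88, adjusted p = 0.101). Eff exceeded Ctrl 1.97-fold (0.98, SE 0.27), with an unadjusted p of 0.00681 and an adjusted p of 0.383 in limma, whereas DESeq2 called it (adjusted p = 0.0109, with a range of 0.000136 to 1 over all alternatives). The differences were 0.76 between LPSEff and Eff (adjusted p = 0.0904, limma; 0.0099 with DESeq2, range 0.000431 to 0.546) and 0.61 between LPSEff and LPS (adjusted p = 0.502, limma).

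The genome holds near-identical copies of Fth1, among which reads could be split. Fth1-ps, a processed pseudogene on chromosome X, had mean values of 405 (Ctrl), 1006 (LPS), 915 (Eff) and 1675 (LPSEff) normalized counts, in the same order of means as Fth1. Fth-ps2 and Fth-ps3 went from 87.3 and 86.4 in Ctrl to 309 and 324 in LPSEff. The sum of these copies was small beside Fth1 in all groups, but their reads and those of Fth1 may not be fully separated. Reads matching several places may also be missing from the counts. The sum therefore does not show how much of Fth1 is affected.

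Ftl1 had 2218 and 1405 normalized counts in Ctrl, 2245 and 1489 in LPS, 3645 and 2294 in Eff as well as 3539 and 2677 in LPSEff. Ctrl and LPS overlapped, as did Eff and LPSEff, and both efferocytic groups lay above both naïve groups without overlap. With LPS/IFNγ its log2 fold change was 0.05 in naïve (95% confidence interval -0.71 to 0.81) and 0.09 in efferocytic Mϕ (-0.67 to 0.85). Both turned negative with samples rescaled to equal totals (-0.35 and -0.36) or with quantile normalization (-0.46 and -0.58). With efferocytosis it was 0.71 in unstimulated (SE 0.33, adjusted p = 0.861, limma) and 0.75 in stimulated Mϕ (adjusted p = 0.493). Neither was called in this fit without a replicate term. With the term, both were called by limma (adjusted p = 0.0203 and 0.00908), and also by edgeR and DESeq2. The values of Ftl1 are uncertain, because a gene annotated as miRNA, Gm56125, lies on the same strand within an exon of Ftl1 (chr7:45107513-45107621) and was listed at means of 1482 in Ctrl, 1588 in LPS, 2542 in Eff and 2679 in LPSEff, in the same order. How reads over both genes were assigned cannot be told from the deposited values. Gm10252 on the opposite strand had means of 163 to 329.

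Ncoa4 had 97.1 and 114 normalized counts in Ctrl, 76.3 and 105 in LPS, 91.1 and 110 in Eff as well as 89.5 and 95.2 in LPSEff. All groups overlapped with their neighbours in the order of the means. The log2 fold changes ranged from -0.23 (LPS against Ctrl, 95% confidence interval -0.82 to 0.36) to 0.05 (LPSEff against LPS, -0.54 to 0.63).

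Next, the genes of iron release were assessed. Slc40a1 encodes ferroportin, the known exporter of cellular iron. It had 76.2 and 125 normalized counts in Ctrl, 89.2 and 114 in LPS, 101 and 239 in Eff as well as 171 and 198 in LPSEff. Eff n2 was the highest sample of all, Eff overlapped with every other group, and both LPSEff samples exceeded both LPS samples. With LPS/IFNγ the log2 fold change was 0.04 in naïve (95% confidence interval -0.91 to 1.00) and 0.24 in efferocytic Mϕ (-0.71 to 1.20). Both turned negative with samples rescaled to equal totals (-0.35 and -0.20). With efferocytosis it was 0.66 (SE 0.42, adjusted p = 0.999) and 0.86 (SE 0.42, adjusted p = 0.55) in limma's fit, so that no change was called and the intervals (-0.30 to 1.62 and -0.09 to 1.82) allow a rise of more than 2-fold as well as none.

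Cp, ceruloplasmin, is a copper ferroxidase that loads released iron onto transferrin. Cp had 53.3 and 18.5 normalized counts in Ctrl, 239 and 104 in LPS, 21.9 and 45.2 in Eff as well as 130 and 95.2 in LPSEff. Both stimulated groups lay above both unstimulated groups. LPS exceeded Ctrl 4.87-fold (log2 fold change 2.28, SE 0.59, adjusted p = 0.026, limma), a call that was lost without Ctrl n2 (1.55, adjusted p = 0.148) and without LPS n1 (1.68, adjusted p = 0.135). LPSEff exceeded Eff 3.45-fold (1.79, SE 0.59) and was not called in limma (adjusted p = 0.0713), but it was with DESeq2 (0.0159) or with only the compared groups in the fit (0.0314), with a range of 0.00325 to 0.307 over all alternatives. Hps3, which overlaps Cp on the opposite strand, had means of 262 to 307 in the 4 groups, above those of Cp itself. The default setting of htseq-count assigns reads by strand, whereas whether the strand of these libraries matches it is not stated.

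Lcn2, lipocalin 2, binds the siderophores with which bacteria collect iron, and it gave the largest change of the set. It had 49.5 and 26.0 normalized counts in Ctrl, 2569 and 1290 in LPS, 79.7 and 33.9 in Eff as well as 1807 and 1381 in LPSEff. The stimulated and the unstimulated samples were fully separated, and within each of these states the naïve and efferocytic samples overlapped. The rise was 49.3-fold in naïve (log2 fold change 5.62, SE 0.49, adjusted p = 0.000204, limma) and 29.8-fold in efferocytic Mϕ (4.90, SE 0.49, adjusted p = 0.000371, limma), and it was called under each of 20 alternative settings. LPSEff and LPS differed by -0.20 (95% confidence interval -1.32 to 0.92).

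Ireb2 encodes iron regulatory protein 2, a sensor that binds the hairpins shown above. It had 781 and 893 normalized counts in Ctrl, 649 and 1038 in LPS, 642 and 858 in Eff as well as 722 and 987 in LPSEff. All groups overlapped, and the log2 fold changes lay between -0.17 (Eff against Ctrl, 95% confidence interval -0.81 to 0.47) and 0.19 (LPSEff against Eff, -0.45 to 0.82).

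Comparing the members as a set, 4 of 10 (Lcn2, Cp, Slc11a2 and Fth1) were called with LPS/IFNγ in naïve Mϕ, all higher, while 24.0% of all tested genes were called in either direction and 12.4% of all tested genes were called higher. The count was 2 without Ctrl n2 or without LPS n1. In efferocytic Mϕ, 2 of 10 (Lcn2 and Slc11a2) were called, both higher, beside 19.7% of all genes called in either direction and 10.7% of all genes called higher. DESeq2 called 4 there (Lcn2, Slc11a2, Cp and Fth1), beside 21.6% of all genes. The members' median log2 fold change was 0.25 in naïve and 0.37 in efferocytic Mϕ, with -0.01 and 0.01 over all genes tested. Samples rescaled to equal totals shifted the median of all genes to -0.40 and -0.44 and changed the split of all calls in naïve Mϕ from 2015 higher and 1895 lower to 1420 higher and 4315 lower, and in efferocytic Mϕ from 1753 and 1460 to 1216 and 4362.

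Groups did not overlap in 6 members with LPS/IFNγ in naïve Mϕ (5 higher and Tfrc lower, beside 28.4% higher and 30.9% lower of all genes) and in 5 members in efferocytic Mϕ (all higher, beside 29.5% higher and 30.4% lower of all genes). These 5 were the same genes in both contexts, i.e. Slc11a1, Slc11a2, Fth1, Cp and Lcn2.

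**Figure D2:**
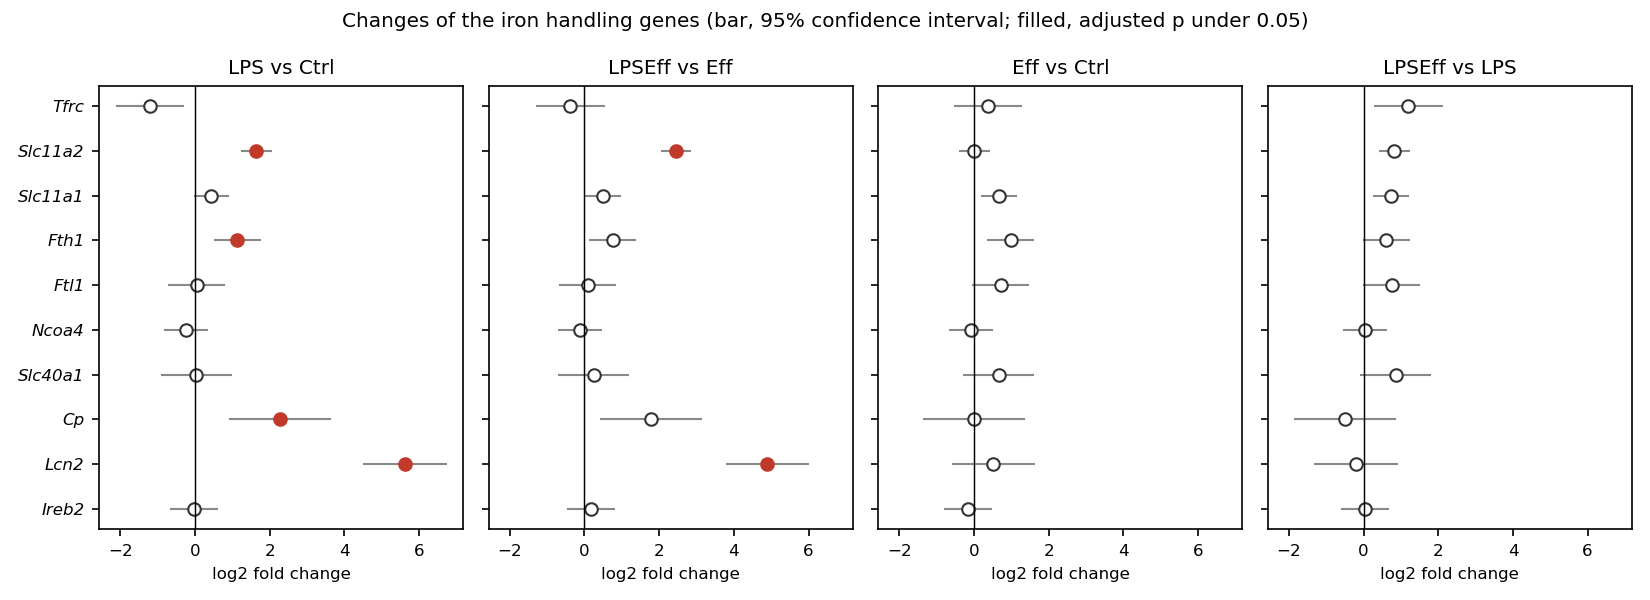
Log2 fold changes (x axis, limma) of the 10 members (y axis) in 4 comparisons, with 95% confidence intervals as bars and filled points for an adjusted p under 0.05. Filled points are Slc11a2, Fth1, Cp and Lcn2 for LPS against Ctrl and Slc11a2 and Lcn2 for LPSEff against Eff, and none for either efferocytosis comparison.

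Efferocytosis was examined in unstimulated and in stimulated Mϕ. Without a replicate term in the fit, no member was called by limma or edgeR in either. The shares of all genes called were 0.251% and 0.773% in limma and 0.0858% and 0.773% in edgeR. At an unadjusted p under 0.05 there were 2 members in Eff against Ctrl (Fth1 and Slc11a1, beside 6.13% of all genes) and 3 in LPSEff against LPS (Slc11a2, Slc11a1 and Tfrc, beside 10.3%). Without a replicate term, DESeq2 called 1 in each, Fth1 (beside 1.25% of all genes) and Slc11a2 (2.26%). With the term, limma called 3 and 4 members, beside 2.67% and 6.97% of all genes. Without overlap, 3 members were higher in Eff than in Ctrl (16.3% of all genes) and 6 were higher in LPSEff than in LPS (19.3%), and none was lower in either (17.8% and 17.0% of all genes). Slc11a1, Fth1 and Ftl1 were higher without overlap in both, beside 7.96% of all genes. The median log2 fold change of the members was 0.45 and 0.67, with -0.01 and 0.00 over all genes tested.

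Fibroblast markers moved with these comparisons. Their sum over 12 genes, such as collagens and decorin, was 519 to 522 normalized counts in Ctrl, 2276 to 4531 in LPS, 2039 to 3820 in Eff and 5810 to 6878 in LPSEff. Of 10 tested (Lum and Postn were too low), 5 were called higher in each efferocytosis comparison, Col1a1, Col1a2, Col3a1 and Col6a3 in both. Of all genes, 0.215% (Eff against Ctrl) and 0.730% (LPSEff against LPS) were called higher. Without overlap, 8 of these markers were higher and 0 lower in Eff against Ctrl, and 7 higher and 1 lower in LPSEff against LPS. The lower one was Pdgfrb (246 and 245 in LPS, 82.3 and 157 in LPSEff). The mean of Lox was also lower in LPSEff (1225) than in LPS (2478). Thy1 had means of 31.5 in Ctrl, 25.8 in Eff, 63.6 in LPS and 43.1 in LPSEff. In LPS, 1 gene, Lox, held most of the sum (3620 and 1335). Neutrophil markers summed to 5490 to 7314 in Ctrl, 3964 to 4613 in LPS, 9197 to 11667 in Eff and 6444 to 8719 in LPSEff, most of it Mmp8, while Retnlg had 0 reads in Ctrl and LPS. Dendritic cell markers summed to at most 2922 in Ctrl, 1768 in Eff and 6905 in LPSEff, against 8513 to 17213 in LPS. In each group most of this sum was 1 gene, Ccr7 (7649 and 14409 in LPS, 6243 and 5720 in LPSEff). None of 6 tested neutrophil and 5 tested dendritic cell markers was called in either efferocytosis comparison. With LPS/IFNγ in naïve Mϕ, 4 of 10 fibroblast, 2 of 6 neutrophil, 2 of 5 dendritic cell and 2 of 8 macrophage markers were called higher, beside 12.4% of all genes. In efferocytic Mϕ these were 2 of 10, 1 of 6, 1 of 5 and 3 of 8, beside 10.7% of all genes. What part RNA of these other cells had in the levels of the iron genes was not tested, and in bulk samples a change in the share of cells cannot be told apart from a change in RNA per cell.

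No member was called for a difference of its LPS/IFNγ effect between naïve and efferocytic Mϕ (limma, smallest unadjusted p = 0.0125 for Slc11a2, the 1 member under 0.05), and edgeR and DESeq2 also called 0. Over all genes this interaction gave 0 calls (0%) in limma, edgeR and DESeq2 without a replicate term, with 311 genes at an unadjusted p under 0.05 in limma.

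To place the members in their pathway, 58 further iron genes were listed by role, of which 47 passed the filter. With LPS/IFNγ, 18 of 47 were called in naïve Mϕ (9 higher, 9 lower) and 18 in efferocytic Mϕ (9 higher, 9 lower), against 24.0% and 19.7% of all genes. These counts rested on single samples, being 7 without Ctrl n1, 9 without Ctrl n2 and 10 without LPS n1 in naïve Mϕ, and 7 without Eff n1, 7 without Eff n2 and 4 without LPSEff n1 in efferocytic Mϕ. With only the compared groups in the fit, 11 were called in naïve Mϕ. The calls that held without any single sample were those of Blvrb, Flvcr1, Steap4 and Hamp in naïve and of Blvrb, Slc39a14 and Hamp in efferocytic Mϕ. The genes not tested were Cd163, Hpx, Cybrd1, Heph, Hephl1, Tfr2, Slc22a17, Hamp2, Hjv, Tmprss6 and Bmp6.

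In haem recycling, 5 of 12 tested genes were called in each context, 3 higher (Hmox1, Blvrb and Spic) and 2 lower (Flvcr1 and Blvra). Of all tested genes, 24.0% were called in naïve and 19.7% in efferocytic Mϕ. Hmox1, haem oxygenase 1, frees iron from haem. It had 830 and 917 normalized counts in Ctrl, 6199 and 2728 in LPS, 3762 and 2922 in Eff as well as 26176 and 11279 in LPSEff. Both Ctrl samples were the lowest and both LPSEff samples the highest, and LPS and Eff overlapped. The LPS/IFNγ rise was 4.71-fold in naïve (log2 fold change 2.24, SE 0.46, adjusted p = 0.01, limma) and 5.18-fold in efferocytic Mϕ (2.37, adjusted p = 0.0089). The naïve call was lost without Ctrl n1 (adjusted p up to 0.0618 over the alternatives), and the efferocytic one without Eff n2, without LPSEff n1 and with quantile normalization (up to 0.0603). Efferocytosis gave 1.92 in unstimulated and 2.06 in stimulated Mϕ, not called in limma (adjusted p = 0.265 and 0.124).

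Blvrb, a biliverdin reductase, rose by 1.24 in naïve and 1.27 in efferocytic Mϕ, and both calls held under each of 17 alternatives without a term for the replicate number. Flvcr1, a haem exporter, fell by 1.05 and 0.87, and Blvra, the other biliverdin reductase, fell by 0.78 and 0.95. Spic, the transcription factor of iron-recycling macrophages in the spleen, was scarce, with 11.4 and 9.25 normalized counts in Ctrl and 28.5 and 33.5 in LPS, and its call in naïve Mϕ held in only 2 of 16 alternatives.

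Slc48a1, which carries haem out of the lysosome, was the 1 further gene that limma called between LPSEff and LPS without a replicate term. It had 834 and 954 normalized counts in Ctrl, 685 and 593 in LPS, 1206 and 1416 in Eff as well as 1921 and 1523 in LPSEff. LPSEff exceeded LPS 2.68-fold (log2 fold change 1.42, SE 0.20, adjusted p = 0.0273, limma). The log2 fold change stayed between 1.25 and 1.59, but the call was lost with only the compared groups in the fit and in 6 of 8 fits that left out 1 sample (without either Ctrl, LPS or LPSEff sample), with an adjusted p of up to 0.242. With LPS/IFNγ its difference was -0.48 in naïve and 0.39 in efferocytic Mϕ, neither of them called, and the difference between these had an unadjusted p of 0.0138 and an adjusted p of 0.9999 (limma). Of all 47 further genes, 10 were higher without overlap in both efferocytosis comparisons, beside 7.96% of all genes. They were Hmox1, Hmox2, Blvrb, Slc48a1, Flvcr1, Steap1, Steap2, Glrx5, Alas1 and Alad. Lower without overlap in both were Spic, Mcoln1, Aco1, Abcg2, Slc39a8 and Ppox. Taken singly, Eff against Ctrl gave 13 higher and 9 lower without overlap, beside 16.3% and 17.8% of all genes. LPSEff against LPS gave 19 higher and 8 lower, beside 19.3% and 17.0%. For Eff against Ctrl without a replicate term, limma called 0 of 47, beside 0.251% of all genes. At an unadjusted p under 0.05 there were 8, beside 6.13% of all genes. For the same comparison edgeR called 0 (beside 0.0858%) and DESeq2 3 (Hmox1, Blvrb and Steap2, beside 1.25%). For LPSEff against LPS, DESeq2 called 7, beside 2.26% of all genes.

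Among other carriers and reductases, 5 of 12 tested genes were called in naïve (3 higher, 2 lower) and 4 in efferocytic Mϕ (3 higher, 1 lower). The shares of all genes were 24.0% and 19.7%. Slc25a37, mitoferrin 1, which brings iron into mitochondria, had 360 and 153 normalized counts in Ctrl, 1225 and 698 in LPS, 248 and 181 in Eff as well as 929 and 824 in LPSEff. It rose by 1.97 (SE 0.42, adjusted p = 0.011, limma) and 2.04 (adjusted p = 0.011), calls that were lost without Ctrl n2 or LPS n1 and without Eff n2 or LPSEff n1 (adjusted p up to 0.0584 and 0.0683). Slc39a14 (ZIP14), an importer of iron not bound to transferrin, rose by 0.79 and 1.45, whereas its relative Slc39a8 (ZIP8) fell by 1.07 and 0.99. Steap3, the endosomal ferrireductase, fell by 1.32 in naïve Mϕ (adjusted p = 0.0468, limma), which was lost in 5 of 8 fits without 1 sample. Steap4, a further metalloreductase, rested on 2 reads in Ctrl and 1 in Eff, for ratios of 25.0 (95% interval for counting error 6.47 to 214) and 56.1 (9.57 to 2266) with LPS/IFNγ.

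Iron regulators gave 3 calls of 7 tested genes in each context, beside 24.0% (naïve) and 19.7% (efferocytic Mϕ) of all genes. Hamp, the gene of hepcidin, which degrades ferroportin, had 0 reads in all Ctrl and Eff samples, 12.9 and 20.3 normalized counts in LPS as well as 37.2 and 27.9 in LPSEff. Against a floor of 3 reads over the group it was at least 12.5-fold higher in LPS than in Ctrl and at least 27.8-fold higher in LPSEff than in Eff. Fbxl5, the iron sensor that marks iron regulatory proteins for degradation, rose by 0.69 (adjusted p = 0.0385, limma) and 1.03 (adjusted p = 0.0088), the former in only 7 of 17 alternatives. Hfe, a partner of the transferrin receptor, fell by 1.30 in naïve Mϕ. Aco1, iron regulatory protein 1, fell by 0.80 in efferocytic Mϕ (adjusted p = 0.0298, limma) and had a log2 fold change of -0.56 in naïve Mϕ (adjusted p = 0.0923).

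The last list held the genes of iron-sulphur cluster and haem synthesis. Of 16 tested, 1 was called higher and 4 lower in naïve Mϕ (Lyrm4, Glrx5 and Fdx2 among them), and 1 higher and 5 lower in efferocytic Mϕ (Fdx2, Glrx5, Nfs1 and Cpox among them). Of all genes, 12.4% were called higher and 11.6% lower in naïve Mϕ, and 10.7% and 8.95% in efferocytic Mϕ. The median log2 fold change over the 16 was -0.55 in naïve and -0.56 in efferocytic Mϕ, beside -0.01 and 0.01 over all genes. Lyrm4, which stabilises the cysteine desulphurase of cluster assembly, fell by 1.35 in naïve Mϕ, and Glrx5, which transfers clusters, fell by 1.08 and 0.99. Alas1, the first enzyme of haem synthesis, was the gene called higher, with 1828 and 1888 normalized counts in Ctrl, 3105 and 2703 in LPS, 2479 and 2706 in Eff as well as 4885 and 4755 in LPSEff. Its rise of 0.64 and 0.90 was not called with samples rescaled to equal totals or with quantile normalization (smallest values 0.04 and 0.16). The naïve call was also lost with any mean above 0 and with only the compared groups. Of 17 alternatives without a replicate term, 8 called the rise in naïve and 13 in efferocytic Mϕ.

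**Figure D3:**
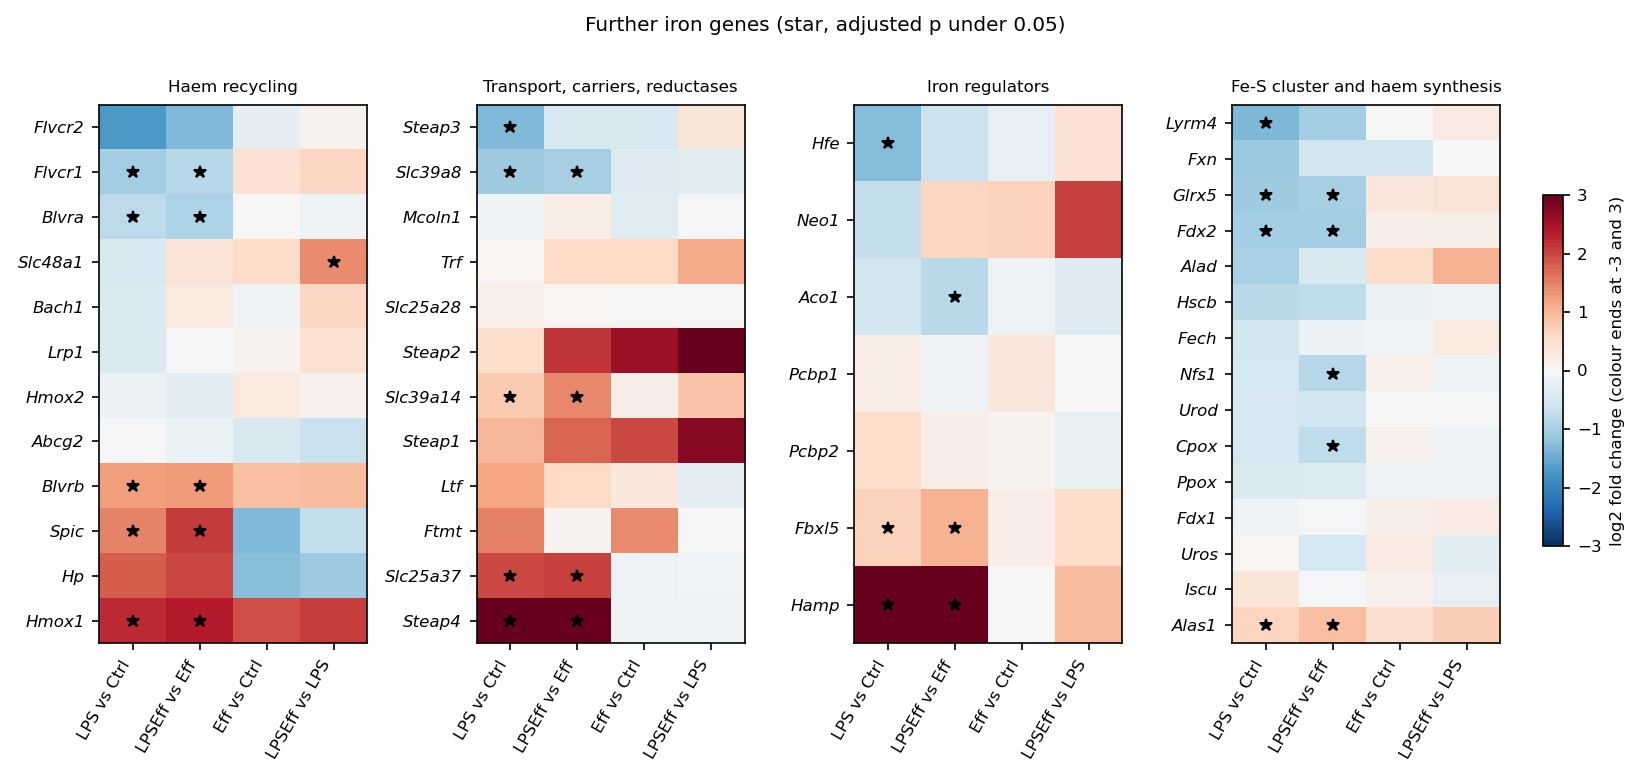
Log2 fold changes (colour, limma, red for higher and blue for lower, ending at -3 and 3) of the further iron genes tested, 1 left out (y axis), in 4 panels by role, for 4 comparisons (x axis), with a star for an adjusted p under 0.05. Stars stand in the columns of LPS/IFNγ, apart from Slc48a1 in LPSEff against LPS.

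Finally, the genes with the most similar pattern were identified by Pearson's r of log2(normalized count + 1) over the 8 samples, as a description. Closest to Lcn2 were Cxcl2 (r = 0.997), 1700034P13Rik (r = 0.996) and Fpr2 (r = 0.994). Closest to Tfrc were Icmt (r = 0.983), Slc25a15 (r = 0.982) and Ikbip (r = 0.976). Closest to Slc40a1 were Tpd52-ps (r = 0.971), Maged1 (r = 0.969) and Ttll7 (r = 0.968). The 8 samples share their library preparation and the group structure, and these genes were picked as the highest of all tested.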

How the data were processed

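The members and gene lists were chosen with earlier results of these data known. The deposited values are a signal per gene, which the authors obtained with cutadapt, bowtie2 (removal of rRNA reads), STAR (mm39), htseq-count in its default mode and DESeq2, as read counts divided by 1 size factor per sample. Tool versions and the annotation release are not given in the sources used here, and the strand of the libraries is not stated (the default mode counts by strand). All values were whole multiples (tolerance 0.01) of a single step per sample, which gave the reads. Of 55359 identifiers, 54749 (98.9%) were named from GENCODE. Sources give 6 or 7 days of differentiation.

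limma 3.58.1 (R 4.3.3) with a trend was fitted on log2(value + 1) with 4 group means and 4 residual degrees of freedom, two-sided, for genes with a mean of at least 10. It was tested on simulated data. Nothing states that samples came from separate cultures or animals, so that p-values measure the spread between these samples, which may be technical. Intervals and floors from reads cover counting error only.

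Named were all members, the 5 largest called rises and falls of further iron genes per comparison, all called genes where 5 or fewer were counted, and 3 genes of the most similar pattern. The values of 1 further iron gene are not reported here. Copies, overlapping genes, Lox, Pdgfrb, Thy1, Mmp8, Ccr7, Lyz2, Hbb-bt and the genes higher or lower in both efferocytosis comparisons were named after their values were seen. Alternatives were pseudocounts of 0.5 and 5, means above 0 or of at least 50, only the compared groups, a replicate block, equal totals, quantile normalization, edgeR 4.0.16 (TMM) and DESeq2 1.42.0 on the recovered reads, and leaving out each sample. edgeR and DESeq2 with a replicate block were added after seeing the data.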

Additional observations from a re-analysis of the deposited data

How the results depend on the processing

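Of 990 member fold changes under alternatives, 872 kept their direction and side of the threshold, 46 gained a call, 8 lost one and 64 turned in sign, all of the last from values that were not called. The calls of Lcn2 and Slc11a2 with LPS/IFNγ held throughout. Where no other reason is given, the cause was not tested. With 2 samples per group, the largest SEs of a log2 fold change were those of Cp (0.59), Lcn2 (0.49) and Slc40a1 (0.42).

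Same-numbered samples share only a number, since no label ties them to a culture or day, and their deviations correlated at r = 0.404 to 0.595 across 6 pairs of groups. With a replicate block, limma called 6 members in LPS vs Ctrl (Slc11a1 and Tfrc in addition), 5 in LPSEff vs Eff (Lcn2, Slc11a2, Slc11a1, Fth1 and Cp), 3 in Eff vs Ctrl (Fth1, Slc11a1 and Ftl1) and, for LPSEff vs LPS, 4 (Tfrc, Slc11a2, Slc11a1 and Ftl1), beside 41.2%, 37.0%, 2.67% and 6.97% of all genes. Slc11a1 was thus called in all 4. In the last 3 comparisons, edgeR with the block called the same 5, then 2 (Fth1 and Ftl1) and the same 4 (38.7%, 2.63% and 7.56% of all genes), and DESeq2 with the block the same 5, the same 3 and 5 (Fth1 in addition; 32.5%, 3.18% and 6.63%). For the interaction, DESeq2 with the block called 29 of all genes (20 higher, 9 lower) and 0 members. Further iron genes called with the block in limma were 28 (LPS vs Ctrl), 3 (Eff vs Ctrl, Hmox1, Blvrb and Hp) and 12 (LPSEff vs LPS). DESeq2 without the block called 4 members in LPSEff vs Eff (Lcn2, Slc11a2, Cp and Fth1), 1 each in Eff vs Ctrl (Fth1) and for LPSEff vs LPS (Slc11a2). Without 1 sample, 2 to 5 members were called in LPS vs Ctrl, 2 in LPSEff vs Eff and 0 in the other comparisons.

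All genes called in Eff vs Ctrl (41) became 79 with any mean above 0, 20 with a mean of at least 50, 9 with only the compared groups, 436 with the block, 14 with edgeR and 204 with DESeq2, and 0 to 45 without 1 sample. In LPSEff vs LPS, 126 became 66 with only the compared groups, 1137 with the block and 368 with DESeq2, and 0 to 84 without 1 sample. In LPS vs Ctrl, 3910 became 6717 with the block and 2076 to 3562 without 1 sample, and in LPSEff vs Eff 3213 became 6033 with the block, 5578 with equal totals and 1567 to 3407 without 1 sample.

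Signs turned as follows. With equal totals, Slc40a1 was -0.35 and Ftl1 -0.35 in LPS vs Ctrl, Slc40a1 -0.20, Ftl1 -0.36 and Ireb2 -0.26 in LPSEff vs Eff, Cp 0.010 in Eff vs Ctrl, and Ftl1 -0.010 for the interaction. With quantile normalization, Ftl1 was -0.46 in LPS vs Ctrl, Ftl1 -0.58 and Ireb2 -0.047 in LPSEff vs Eff, Ncoa4 -0.0037 in LPSEff vs LPS, and Slc11a1 -0.060 and Ftl1 -0.12 for the interaction. Ireb2 in LPS vs Ctrl was 0.025 with edgeR, 0.041 with DESeq2, 0.0098 and 0.022 with the block in edgeR and DESeq2. Cp in Eff vs Ctrl was 0.00030 with a pseudocount of 0.5, 0.022 with edgeR, and 0.21 and 0.17 with the block in edgeR and DESeq2, and Slc11a2 there was -0.0062 with the block in edgeR.

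Without 1 sample, values in LPS vs Ctrl ranged from -0.31 to 0.40 (Slc40a1), -0.28 to 0.38 (Ftl1) and -0.36 to 0.31 (Ireb2). In LPSEff vs Eff they ranged from -0.37 to 0.86 (Slc40a1), -0.24 to 0.42 (Ftl1), -0.040 to 0.41 (Ireb2) and -0.25 to 0.018 (Ncoa4). In Eff vs Ctrl they ranged from -0.037 to 0.064 (Slc11a2), -0.068 to 0.82 (Tfrc), -0.083 to 1.13 (Lcn2), -0.74 to 0.74 (Cp), -0.38 to 0.039 (Ireb2) and -0.20 to 0.065 (Ncoa4). In LPSEff vs LPS they ranged from -0.70 to 0.29 (Lcn2), -1.10 to 0.10 (Cp), -0.30 to 0.38 (Ireb2) and -0.18 to 0.27 (Ncoa4). For the interaction they ranged from -0.42 to 0.82 (Slc40a1), -0.14 to 0.26 (Slc11a1), -0.29 to 0.37 (Ftl1), -1.24 to 0.24 (Cp), -0.13 to 0.55 (Ireb2) and -0.11 to 0.34 (Ncoa4).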
